A study of Homo sapiens with 18 samples.

Results

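Aminoacyl-tRNA synthetases are the enzymes that join each amino acid to its transfer RNA. Their messenger RNAs were followed under riboflavin depletion in Caco-2, a cell line from a human colon carcinoma that serves as a stand-in for gut epithelium. Riboflavin (vitamin B2) is what cells turn into FMN and FAD, the cofactors of flavoenzymes. Genes were chosen by name: of 35 listed genes, 19 cytosolic and 16 mitochondrial, 32 had a probe set that named the gene alone, out of 19775 genes so named on the array. These were 17 cytosolic and 15 mitochondrial synthetases, and MARS1, QARS1 and TARS2 were not analysed here because their probe sets also carry the symbol of a microRNA. For each gene the probe set with the highest mean was used, and all 32 passed the filter on low signal. That rule for the probe set used no measured change, but the list of genes was chosen with earlier results of these data known.

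Cells were grown in DMEM with fetal calf serum (control) or in the same medium made without riboflavin (depleted), and both were collected at 24, 48 and 72 h. This gave 6 groups of 3 Affymetrix arrays, 18 in all, of 1 cell line with no genetic change. Dialysed serum was used in part of the study, and the labels do not say for which arrays. Nothing in them says whether replicates were separate cultures, so every p-value reflects just the spread among these samples, and that spread may be technical.

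Cytosolic synthetases charge the transfer RNAs read by cytosolic ribosomes, and several of them sit together in a large multisynthetase complex. A second set, encoded in the nucleus and imported, charges the transfer RNAs of the mitochondrial ribosome, which makes core subunits of the respiratory chain. GARS1 and KARS1 each supply both compartments from 1 gene and are counted here as cytosolic. Many cytosolic synthetase genes are known targets of ATF4, a transcription factor made when uncharged transfer RNA or other stress activates eIF2alpha kinases. ATF4 binds composite C/EBP-ATF elements, often written TGATGNAA, in front of its targets.

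That element was looked for on both strands in the 300 bases around each gene start (250 before, 50 after) in RefSeq, GRCh38.p14. The promoter table lists several starts for some genes, and the first listed one was used. A match was found for 5 of 14 cytosolic synthetases in the table (35.7%), 1 of 13 mitochondrial ones (7.69%) and 4 of 21 ATF4 pathway genes that are not synthetases (19.0%). Over all 27305 genes in the table the share was 3.67% at the first listed start, and over all 35116 promoters of that length it was 3.62%. With any listed start, chosen after the data were seen, GARS1 was added and the shares were 42.9%, 7.69%, 23.8% and, over all genes, 4.46%. LARS1, VARS1, YARS1, AARS2 and VARS2 were not in the table. The stretches around the 6 matches are shown 5′ to 3′ on the strand of the gene, so that the letters behind these counts can be seen. Capitals mark the match, which reads TTGCATCA where the element lies on the opposite strand.
AARS1, chr16:70289660-70289719, minus strand: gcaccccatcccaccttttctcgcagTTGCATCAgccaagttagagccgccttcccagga
CARS1, chr11:3057407-3057436, minus strand: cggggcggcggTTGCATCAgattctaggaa
IARS1, chr9:92293698-92293736, minus strand: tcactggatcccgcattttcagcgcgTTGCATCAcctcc
NARS1, chr18:57621804-57621833, minus strand: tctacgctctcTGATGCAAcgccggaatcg
TARS1, chr5:33440956-33440985, plus strand (first listed start; the table has a second TARS1 start upstream): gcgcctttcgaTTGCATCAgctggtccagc
YARS2, chr12:32756061-32756120, minus strand: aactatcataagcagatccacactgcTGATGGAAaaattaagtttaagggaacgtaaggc
A match is a description of the letters in this window and not of binding.

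Values are MAS5 signals, the linear probe set intensities of the Affymetrix software, which the authors had scaled to a common array mean. Differences were taken on log2(signal + 16) and tested with limma over all 27307 probe sets past the filter, with a call at an adjusted p of at most 0.05. The sample titles run through all 6 groups once per replicate number, so arrays fall into 3 sets of 6 with 1 array of every group. Arrays of a set deviated together from their group means, with correlations of 0.302 to 0.602 within a set. The fit with this set as replicate block is therefore given beside the fit without it. Each SE printed for a single gene is from the fit without the block, also where only a block adjusted p follows it. Set 2 stood apart in scale: its array medians were 25.6 to 31.3 against 18.4 to 23.3 in the other sets. The highest signal on an array was 27380 to 31410 in set 2 and 6904.8 to 8574.5 in the other sets. Of 10 intestinal epithelial markers, 9 passed the filter, and the median of their mean signals was 2230. Fibroblast and leukocyte markers had medians of 38.3 over 8 and 27.5 over 5 genes, of which 6 and 4 passed the filter. Summed over the 5 leukocyte markers, control arrays read 209.7 to 396.5 and depleted arrays 298 to 455.1. The sums of the other lists leaned the other way. Fibroblast markers summed to 713 to 1048 in control and 632.7 to 899.3 in depleted arrays, and epithelial ones to 22280 to 35530 and 21910 to 32270. In each list the ranges overlapped. The part of these sums in the results was not tested.

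Without the block no synthetase passed the test at any time or in the effect averaged over the 3 times. At an unadjusted p under 0.05 there were 5 of 32 in the averaged effect, 4 at 24 h, 1 at 48 h and 3 at 72 h. Of the 12319 genes tested, 2228, 1137, 859 and 2058 had an unadjusted p under 0.05 in these comparisons. In the same fit 4.26 percent of all probe sets were called in the averaged effect, 0.216 percent at 24 h, 0.0806 percent at 48 h and 4.16 percent at 72 h. With the block 8 genes passed in at least 1 of these comparisons, where it called 15.0, 2.37, 0.692 and 13.3 percent of all probe sets. Of all genes tested, with 1 probe set each, it called 17.2, 2.96, 0.812 and 14.9 percent. AARS1, CARS1, SARS1 and WARS2 were higher in depleted cells at 24 h. IARS1, CARS2 and LARS2 were lower at 72 h, and IARS2 was lower in the averaged effect. SE of a synthetase at 1 time was 0.18 to 0.58 without the block and 0.13 to 0.42 with it, so a missing call does not show that a gene did not change.

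**Figure D1:**
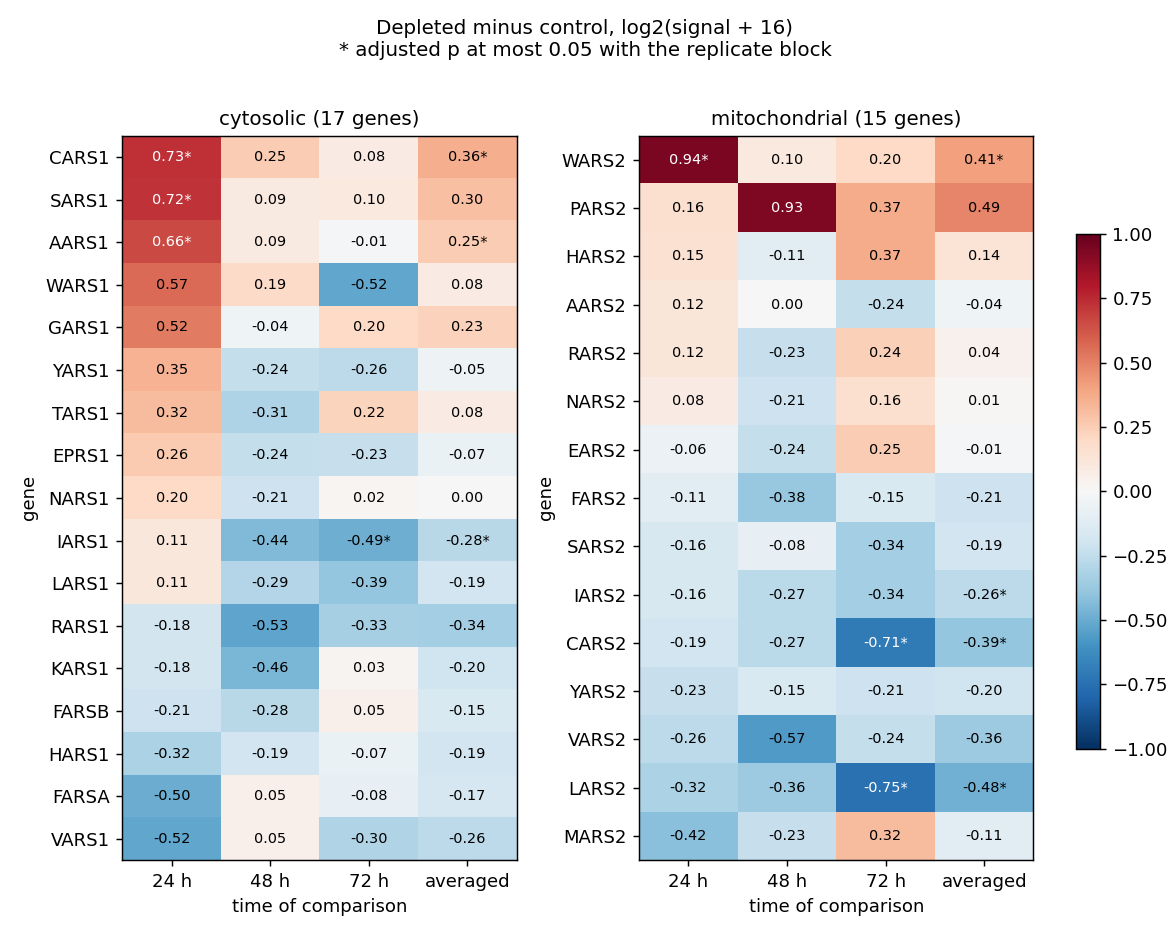
Difference of depleted minus control cells on the log2(signal + 16) scale for 17 cytosolic (left) and 15 mitochondrial synthetases (right) at 24, 48 and 72 h and averaged, ordered by the value at 24 h. Each cell gives the value, red is higher and blue lower in depleted cells, and a star marks an adjusted p of at most 0.05 with the replicate block. The stars at 24 h lie on CARS1, SARS1, AARS1 and WARS2, and those at 72 h on IARS1, CARS2 and LARS2.

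At 24 h AARS1, CARS1 and SARS1 rose with the block, which is 3 of 17 (17.6%) against 1.55 percent of all probe sets called higher in that fit. None of the 17 fell, against 0.813 percent. Of the 12319 genes tested, with 1 probe set each, 1.98 percent were called higher and 0.982 percent lower. Over the 17 genes the median difference was 0.20, from -0.52 for VARS1 to 0.73 for CARS1, and 11 lay above 0. The median of all 12319 genes tested was 0.01, with 51.1 percent above 0. By set, the cytosolic median was 0.27, 0.15 and 0.02.

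AARS1 charges alanine. Its signal at 24 h was 1109.0, 1393.1 and 1070.1 in control and 1643.7, 2352.4 and 1726.3 in depleted cells, in sets 1 to 3. All 3 depleted arrays lay above all 3 control arrays. The difference was 1.58-fold (log2 0.66, SE 0.21, adjusted p = 0.322), and adjusted p = 0.0173 with the block.

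SARS1 charges serine. Its signal was 437.8, 420.4 and 375.6 in control and 822.9, 516.5 and 753.6 in depleted cells at 24 h. The groups did not overlap here either, and set 2 had the smallest step. The difference was 1.64-fold (log2 0.72, SE 0.23, adjusted p = 0.332, and 0.042 with the block). A second and dimmer SARS1 probe set was at 0.16 (SE 0.36, block adjusted p = 0.837).

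CARS1 charges cysteine. Its signal was 638.8, 1068.1 and 479.7 in control and 1090.9, 1700.6 and 835.9 in depleted cells. The groups overlapped because set 2 was high and set 3 low in both media, while each depleted array lay above the control array of its set. The difference was 1.66-fold (log2 0.73, SE 0.36, adjusted p = 0.614, and 0.0257 with the block). Its other probe sets gave 0.69, 0.76 and, for the dimmest, -0.40 at 24 h.

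Next in size were WARS1 for tryptophan (0.57, SE 0.23, block adjusted p = 0.172) and GARS1 for glycine (0.52, SE 0.27, block adjusted p = 0.225). WARS1 was picked out after its values were seen. Its depleted arrays lay at 270.8 to 301.5, all above the control arrays at 129.5 to 235.6. A second WARS1 probe set was at 0.18. GARS1 gave 981.0, 778.3 and 1381.6 in control and 1528.5, 1165.0 and 1767.3 in depleted cells, higher in each set but with overlapping groups. At 24 h 4 of the 32 synthetases (AARS1, SARS1, WARS1 and WARS2) had every depleted array above every control array, and MARS2 the reverse. Over all probe sets these shares were 7.50 and 5.28 percent. Of the 12319 genes tested, 992 and 754 were so separated.

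Genes with and without the promoter match overlapped at 24 h. The 5 cytosolic genes with a match had differences of 0.11 to 0.73 (median 0.32), and the 9 cytosolic genes without one had -0.50 to 0.72 (median -0.18). YARS2, the mitochondrial gene with a match, was at -0.23 (SE 0.31). SARS1 and WARS1 held no match at any listed start, and GARS1 none at the first. IARS1 held one directly before its start and was at 0.11 (SE 0.24).

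Members of the multisynthetase complex were grouped with these results known. The 5 measured ones, EPRS1, IARS1, KARS1, LARS1 and RARS1, lay between -0.18 and 0.26 at 24 h (median 0.11). The 12 cytosolic synthetases outside it lay between -0.52 and 0.73 (median 0.33). In the averaged effect all 5 of the complex were below 0, from -0.34 for RARS1 to -0.07 for EPRS1, and 1 of them, IARS1, fell with the block. Outside the complex 5 were below and 7 above 0. These values are of 1 probe set per gene. Other EPRS1 probe sets were at 0.59 and -0.13 at 24 h, and at 0.08 and -0.08 averaged. Those of KARS1 and LARS1 were -0.17 to -0.01 averaged, with a LARS1 one at -0.35 at 24 h. At the low end at 24 h were VARS1 for valine and FARSA, the catalytic subunit for phenylalanine, at -0.52 and -0.50. Neither of these probe sets passed with or without the block. A second FARSA probe set, with a mean signal of 158, was at -0.82 at 24 h (SE 0.28, adjusted p = 0.372, and 0.0317 with the block).

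KARS1, the lysine enzyme of both compartments, did not pass at any time. Its signal in controls of set 2 was 8288.1 at 24 h and 9943.6 at 48 h, above every other array. At 72 h the controls read 5583.6, 5129.1 and 4033.7 and the depleted arrays 5731.2, 5226.1 and 4125.3, a difference of 0.03 (SE 0.30). These signals are close to the highest of any gene in sets 1 and 3, and what that does to the differences was not tested. A second KARS1 probe set was at -0.18 at 24 h and -0.05 at 72 h (SE 0.17 each).

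**Figure D2:**
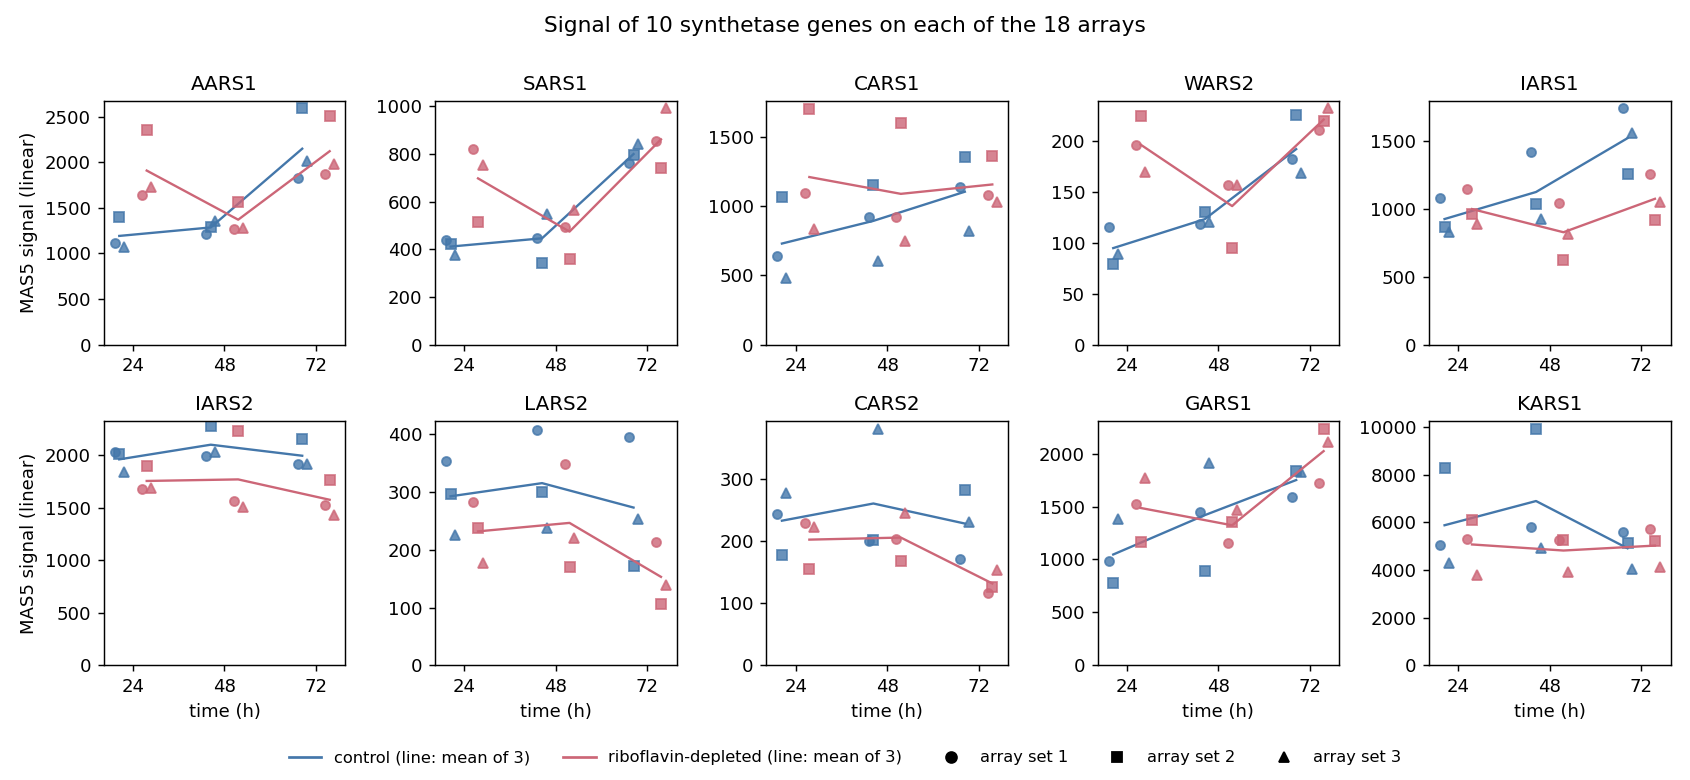
MAS5 signal (linear, from 0) of 10 synthetase genes against time, for control (blue) and depleted cells (red). Each point is 1 array, its shape gives the array set, and lines join the means of 3 arrays. AARS1, SARS1 and WARS2 have separate groups at 24 h and overlapping groups at 48 and 72 h, and IARS2 is lower in depleted cells in every set and time.

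At 48 h no synthetase passed with or without the block, at the lowest share of calls of the 3 times. Cytosolic and mitochondrial medians were -0.21 and -0.23 against 0.03 for all genes. AARS1 gave 1207.2, 1286.3 and 1357.8 in control and 1269.3, 1559.9 and 1276.9 in depleted cells, and SARS1 and CARS1 overlapped likewise. PARS2, the dim mitochondrial proline enzyme, had the highest value of all at 0.93 (SE 0.43, adjusted p = 0.655). One control array of PARS2 read 4.9, below the filter signal of 19.6. With arrays centred on the 75th percentile the median of all genes at 48 h moved by -0.12, and both compartment medians moved with it, to -0.33 and -0.35.

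At 72 h IARS1, the isoleucine enzyme of the complex, was lower with the block. That is 1 of 17 cytosolic genes (5.88%), against 6.90 percent of all probe sets and 8.65 percent of all genes tested called lower. The signal of IARS1 was 1743.4, 1258.3 and 1563.2 in control and 1253.8, 921.2 and 1048.5 in depleted cells. Every depleted array was below every control array, and the difference was -0.49 (SE 0.24, adjusted p = 0.303, and 0.0321 with the block). WARS1, separated upwards at 24 h, was separated downwards at 72 h with 257.2, 297.2 and 237.1 against 323.5, 449.7 and 387.8 in control (-0.52, SE 0.23, adjusted p = 0.25, and 0.123 with the block). Its change of effect from 24 to 72 h was -1.09 (SE 0.32, adjusted p = 0.162, and 0.0529 with the block), the smallest p of the 32 without the block. With the block AARS1 was closest to the threshold (-0.68, SE 0.30, block adjusted p = 0.0505). For no synthetase did the depletion effect at 72 h differ from that at 24 h past the test, with or without the block. The count was 4 of 32 at an unadjusted p under 0.05, beside 1317 of the 12319 genes tested. By adjusted p 0.645 percent of all probe sets were called without the block and 4.58 percent with it. The cytosolic median at 72 h was -0.07, beside -0.04 for all genes. At 72 h IARS1, WARS1, CARS2 and IARS2, 4 of 32, had every depleted array below every control array, and MARS2 the reverse, against 11.6 and 11.5 percent of all probe sets. Of the 12319 genes tested, 1647 and 1207 were so separated.

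Of the 4 genes that were higher at 24 h, AARS1, SARS1 and WARS2 also rose with time in control cells with the block, and CARS1 did not pass (0.64, SE 0.36, adjusted p = 0.844, and 0.0687 with the block). From 24 to 72 h in control medium AARS1, IARS1, SARS1, WARS1 and YARS1 rose with the block, 5 of 17 cytosolic synthetases (29.4%), as did the mitochondrial WARS2, 1 of 15. In that fit 1.22 percent of all probe sets were called, 0.729 percent higher. Of all genes tested it called 1.57 percent, 0.998 percent higher. Without the block none of the 32 passed in limma, and 0.117 percent of all probe sets were called. At an unadjusted p under 0.05 there were 8 of the 32, beside 833 of the 12319 genes tested. AARS1 controls went from 1070.1 to 1393.1 at 24 h up to 1827.3 to 2599.0 at 72 h (0.84, SE 0.21, adjusted p = 0.205, and 0.00587 with the block). SARS1 controls went from 375.6 to 437.8 up to 762.9 to 842.5 (0.93, SE 0.23, block adjusted p = 0.0188). WARS1 controls were at 129.5 to 235.6 and then 323.5 to 449.7 (0.96, SE 0.23, block adjusted p = 0.0436).

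In depleted medium no synthetase passed between 24 and 72 h in either fit, where 2.07 percent of all probe sets were called without the block and 10.3 percent with it. Of the 12319 genes tested the block fit called 11 percent. AARS2 was the only synthetase with an unadjusted p under 0.05 (-0.46, SE 0.21), beside 1711 of the 12319 genes tested. AARS1 was at 0.16 (SE 0.21), SARS1 at 0.32 (SE 0.23) and WARS1 at -0.13 (SE 0.23). The cytosolic median was 0.39 in control and 0.11 in depleted cells. These comparisons use the same arrays at 24 h as the depletion effect at 24 h, so they are no independent evidence for it.

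**Figure D3:**
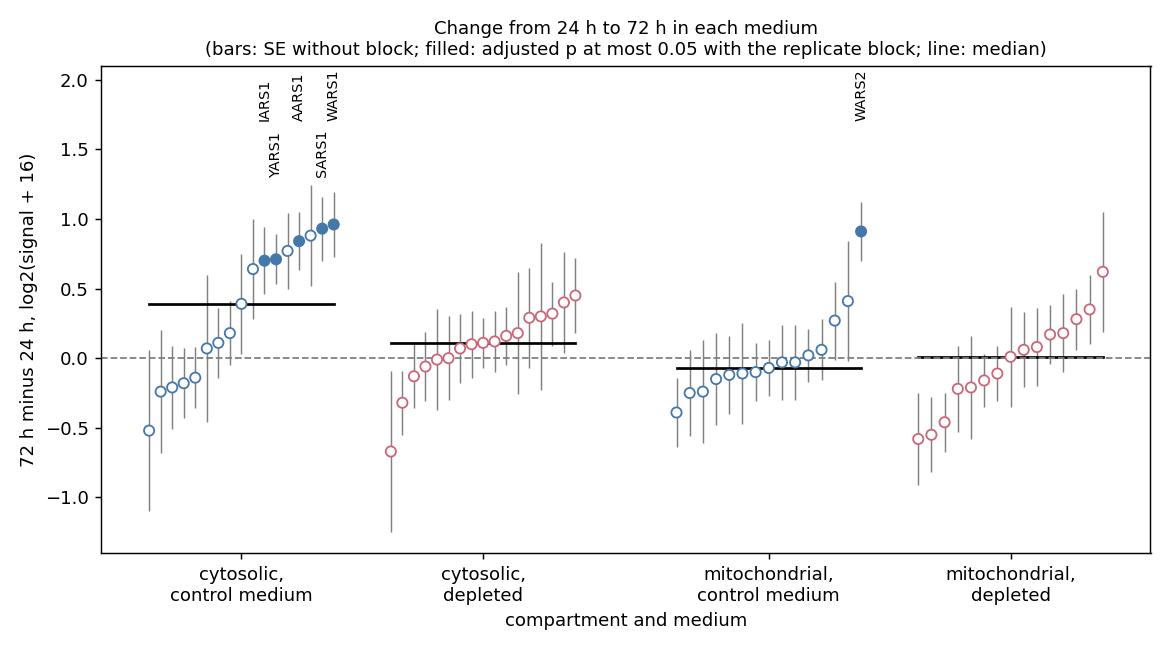
Difference of 72 h minus 24 h on the log2(signal + 16) scale for each synthetase, split by compartment and medium. Each point is 1 gene with its SE from the fit without the block, filled points passed with the replicate block, and black lines are medians. The 5 filled cytosolic genes and WARS2 are all in control medium.

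The mitochondrial synthetases had a median of -0.11 at 24 h, -0.23 at 48 h and -0.15 at 72 h, and in the averaged effect -0.11 with 5 of 15 above 0. With the block 3 of 15 fell in the averaged effect (20.0%) and 1 rose (6.67%), against 6.46 and 8.55 percent of all probe sets. Over all genes tested, with 1 probe set each, 8.81 percent were called lower and 8.4 percent higher. The cytosolic counts in that comparison were 2 higher (11.8%) and 1 lower (5.88%) of 17. At 72 h 2 of 15 fell (13.3%), and none rose, where 6.90 percent of all probe sets were called lower and 6.40 percent higher. Over all genes tested these shares were 8.65 and 6.21 percent.

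LARS2 charges leucine in mitochondria. At 72 h its signal was 395.0, 171.7 and 252.6 in control and 213.3, 106.6 and 139.3 in depleted cells. The groups overlapped through set 2, and every depleted array was below the control of its set, as in 9 of 9 pairs over the 3 times. The difference at 72 h was -0.75 (SE 0.33, adjusted p = 0.262, and 0.0225 with the block), and averaged it was -0.48 (SE 0.19, adjusted p = 0.198, and 0.0132 with the block). A second LARS2 probe set gave -0.19 at 72 h and -0.26 averaged.

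CARS2 charges cysteine in mitochondria. Its signal at 72 h was 171.8, 282.4 and 231.4 in control and 116.4, 125.4 and 154.0 in depleted cells, with no overlap. The difference was -0.71 (SE 0.27, adjusted p = 0.18, and 0.0435 with the block). At 24 h it was -0.19 (SE 0.27). The only other CARS2 probe set past the filter was at 0.16 at 72 h. Averaged, CARS2 was at -0.39 (SE 0.16, block adjusted p = 0.0494), lower in 8 of 9 pairs.

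IARS2 charges isoleucine in mitochondria. Its signal at 72 h was 1917.4, 2154.3 and 1915.6 in control and 1527.6, 1766.3 and 1434.8 in depleted cells. It was lower in 9 of 9 pairs by a small step, -0.26 averaged (SE 0.11, adjusted p = 0.223, and 0.0313 with the block). IARS1, the cytosolic isoleucine enzyme, was at -0.28 averaged (SE 0.14, adjusted p = 0.313, and 0.0351 with the block). Unlike IARS2 it was lower in 6 of 9 pairs, and at 24 h it was higher in 3 of 3. These genes were set side by side after their values were seen.

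WARS2 charges tryptophan in mitochondria and was the one mitochondrial synthetase that rose with the block. At 24 h its signal was 115.5, 79.7 and 89.6 in control and 196.0, 224.7 and 169.7 in depleted cells. The groups were separate, and the difference was 1.92-fold (log2 0.94, SE 0.21, adjusted p = 0.108, and 0.0216 with the block). At 48 h it was 0.10 and at 72 h 0.20 (SE 0.21 each), with controls at 168.7 to 226.3 by 72 h. Averaged, WARS2 had the smallest p of the 32 (0.41, SE 0.12, adjusted p = 0.0686, and 0.024 with the block). A second WARS2 probe set was at 0.10 at 24 h, and over all WARS2 probe sets the difference was 0.33 (adjusted p = 0.447).

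Most block calls were lost with any 1 set left out. Of the 14 calls with the block in the 4 depletion comparisons, counting a gene once for each comparison, 5 held when 1 of the 3 sets was left out, in each case set 2: LARS2 at 72 h and averaged, and CARS1, IARS2 and WARS2 averaged. None of the 4 calls at 24 h held without any 1 set, with values that stayed between 0.59 and 1.07. The 6 calls over time in control cells were not refitted with a set left out.

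Other genes of the pathway were compared at the same times. Of 11 measured partners and accessories, none passed with or without the block in any depletion comparison, and 1 had an unadjusted p under 0.05 at 48 h. Among them AIMP1, a scaffold of the multisynthetase complex, was at -0.30 averaged (SE 0.17), and GATB, of the enzyme that makes mitochondrial glutaminyl-tRNA, at -0.27 (SE 0.15). XPOT, which exports transfer RNA from the nucleus, was at -0.14 (SE 0.10), and it rose in control cells from 24 to 72 h with the block (0.80, SE 0.18, block adjusted p = 0.0111). None of 4 cytosolic elongation factors or 9 mitochondrial translation factors passed in either fit, and none had an unadjusted p under 0.05. TUFM, the mitochondrial elongation factor Tu, was at -0.34 (SE 0.18).

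Of 24 ATF4 pathway genes that are not synthetases, 5 rose at 24 h without the block and 10 with it, and 23 lay above 0 (median 0.73). Without the block 0.176 percent of all probe sets were called higher, and with it 1.55 percent. Of the 12319 genes tested, 29 were called higher at 24 h without the block and 1.98 percent with it, and 51.1 percent lay above 0. At 48 h none of the 24 passed in limma without the block (6 had an unadjusted p under 0.05) and 1 rose with it. Of all 12319 genes tested, 859 had an unadjusted p under 0.05 at 48 h, and 0.568 percent rose with the block. At 72 h 4 rose and 2 fell without the block, 8 and 4 with it, and 15 lay above 0. Of all 12319 genes tested, 236 rose and 304 fell at 72 h without the block. With the block 6.21 percent rose and 8.65 percent fell. The share of all genes above 0 at 72 h was 46 percent. At 24 h the smallest p-values were those of DDIT4 (2.50), CTH (1.75), SLC7A11 (1.81) and STC2 (1.64). ASNS and ATF4 are given as well, with their values known when they were picked. ASNS, which makes asparagine, had signals at 24 h of 1107.3, 704.9 and 714.8 in control and 2611.1, 2131.2 and 1935.8 in depleted cells (1.41, SE 0.27, adjusted p = 0.0402). ATF4 itself was at 0.74 at 24 h (SE 0.28, adjusted p = 0.445, and 0.0148 with the block). ASNS also rose in control cells from 24 to 72 h with the block (1.28, SE 0.27, block adjusted p = 0.000669). This list was chosen with earlier results of these data known, so its direction is no independent evidence. CARS1, the highest cytosolic synthetase at 24 h with 0.73, lay at the median of the ATF4 list.

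**Figure D4:**
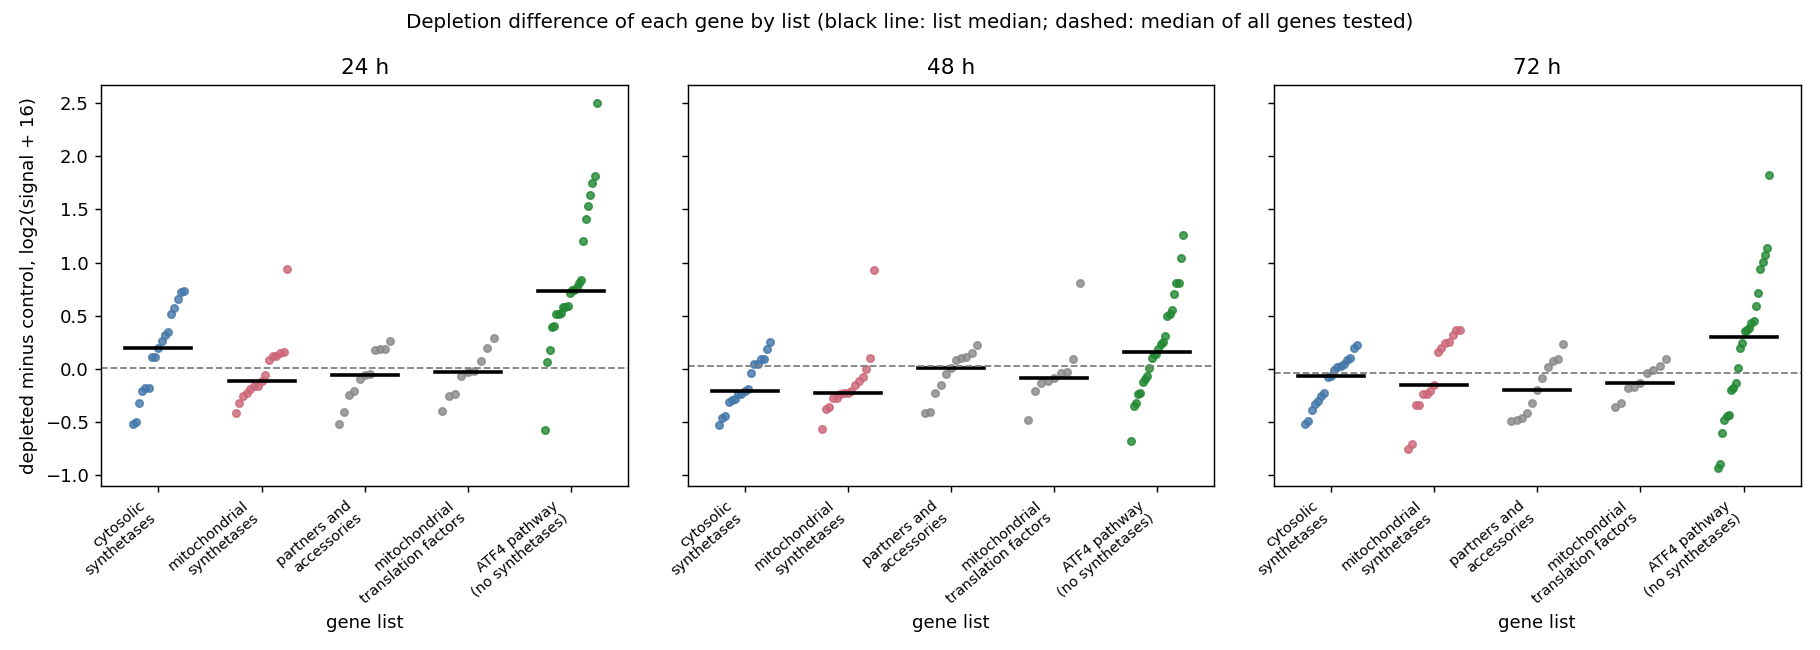
Difference of depleted minus control cells on the log2(signal + 16) scale for each gene of 5 lists at 24, 48 and 72 h. Each point is 1 gene, black lines are list medians and the dashed line is the median of all genes tested. At 24 h the medians are 0.20 for cytosolic and -0.11 for mitochondrial synthetases and 0.73 for the ATF4 genes.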

How the data were processed

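Total RNA of 18 Caco-2 samples was measured on Affymetrix arrays. The deposited values are intensities on a linear scale, made with MAS5 per the submitters' processing notes (version not given in the sources used here). The authors had scaled each array, since its mean after trimming 2 percent from both tails was 99.462 to 99.74 throughout. Detection calls were not used here. After removal of 62 control probe sets, 27307 of 54675 were tested: those whose mean log2(signal + 16) reached the median, 5.15, which is a signal of 19.6. Of the probe sets other than controls, 41091 name 1 gene, 1801 several and 11721 none, after the platform annotation.

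All 18 arrays were fitted in limma 3.58.1 (R 4.3.3) with 1 mean per group, 12 residual degrees of freedom and Benjamini-Hochberg adjustment over all 27307. The number of arrays limits the precision. Pairing comes from the running number in the titles. With each group mean removed, the closest other array came from the same set for all 18 arrays, and correlations between sets were -0.754 to 0.163. Removing the mean of 3 arrays by itself pushes arrays of the same group towards negative correlations. The low values between sets are therefore partly built in. The code was tested on simulated data. Plots used matplotlib 3.10.9 under Python 3.11.15. Members, lists, grouping and tests were chosen with earlier results of these data known. Full values are given for members called in a depletion comparison with or without the block, for GARS1 and KARS1, and for the 3 mitochondrial members with the smallest p averaged. Up to 4 genes of other lists are named by smallest p. Alternatives were the block, pseudocounts of 1 and 64, no filter, 2 other scalings, all probe sets of a gene averaged, and leaving out arrays. Leaving out sets under the block was added after the data were seen.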

Additional observations from a re-analysis of the deposited data

How the results depend on the processing

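Counts of synthetases called were 0 without the block in all 4 depletion comparisons, and for single genes 1 of 768 results under the other settings without the block was called: WARS2, averaged, with a pseudocount of 64 (1 mitochondrial gene higher, adjusted p = 0.0433). Leaving out 1 array called 1 of 2304: WARS2, averaged, without depleted 48 h replicate 2 (adjusted p = 0.0273). With the replicate block the counts were 2 cytosolic genes higher and 1 lower averaged, 3 higher at 24 h and 1 lower at 72 h, and 1 mitochondrial gene higher and 3 lower averaged, 1 higher at 24 h and 2 lower at 72 h. With the block and 1 set left out, these averaged counts ranged from 0 to 2 cytosolic higher, 0 to 1 cytosolic lower, 0 to 1 mitochondrial higher and 0 to 2 mitochondrial lower, with 0 to 1 mitochondrial lower at 72 h and 0 called at 24 or 48 h. All calls there came without set 2, and they included SARS1 and VARS1 averaged. Each such fit has fewer arrays and so less precision, and why calls came only without set 2 was not tested.

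Of all probe sets, 1162, 59, 22 and 1136 were called averaged and at 24, 48 and 72 h, and 4097, 646, 189 and 3631 with the replicate block. A pseudocount of 64 called 93 at 24 h, no filter 39 at 24 h and 8 at 48 h, centring on the 75th percentile 25 and 7, and gene means 655 at 72 h, where fewer features were tested. Leaving out 1 array gave 794 to 1122, 20 to 61, 3 to 20 and 576 to 1210. The cytosolic median averaged was -0.04 after quantile normalization, -0.12 with arrays centred on the 75th percentile and -0.02 over all probe sets of a gene, and at 48 h -0.33 and -0.07 under the last 2. Without 1 array the cytosolic median was -0.16 to -0.02 averaged, 0.09 to 0.22 at 24 h, -0.28 to -0.06 at 48 h and -0.13 to 0.00 at 72 h. The mitochondrial one was -0.19 to -0.05, -0.12 to -0.02, -0.27 to -0.10 and -0.17 to 0.04, above 0 only without control 72 h replicate 1. The cause of these shifts was not tested. No call changed direction.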

Other observations

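Of the 26 further probe sets of these genes that passed the filter, 2 were called without the block at 24 h, 72 h or averaged and 5 with it. With the block alone these were a second FARSA probe set (24 h -0.82, block adjusted p = 0.0317; averaged -0.40, block adjusted p = 0.0206), an EPRS1 one (24 h 0.59, SE 0.30, block adjusted p = 0.0411) and a LARS1 one (72 h -0.53, SE 0.20, block adjusted p = 0.019). The main probe sets were at 0.26 for EPRS1 at 24 h and -0.39 for LARS1 at 72 h. The 2 called without the block are dim. For CARS1 the dim probe set, with a mean signal of 32.9, read 19.0, 5.2 and 18.2 in control and 101.2, 67.2 and 42.9 in depleted cells at 72 h (1.5, SE 0.32, adjusted p = 0.0139, and 0.007 with the block). The main CARS1 probe set was at 0.08 (SE 0.36). For TARS1, the threonine enzyme, the dim probe set, with a mean signal of 32, read 1.5, 29.7 and 23.5 in control and 63.2, 68.8 and 55.3 in depleted cells (1.31, SE 0.34, adjusted p = 0.0401, and 0.012 with the block). The main TARS1 probe set was at 0.22 (SE 0.36). All 5 were picked out after their values were seen. Which part of the transcript each probe set reads was not analysed here.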
